A study of Mus musculus with 44 samples.

Results

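The insulin and insulin-like growth factor (IGF) signalling genes described here are 10 genes: the ligand gene Igf1, the receptor genes Igf1r, Igf2r and Insr, the adaptor genes Irs1, Irs2 and Irs4, and the binding protein genes Igfbp2, Igfbp4 and Igfbp5. They were taken by symbol from 55335 genes of a translating ribosome affinity purification (TRAP-seq) count table, and each symbol matched 1 row. All 20 libraries came from hippocampi of male Emx1-NuTRAP mice, a cross of Emx1-IRES-Cre knock-in and NuTRAP reporter mice, in which Cre made under Emx1 control switches on a GFP-tagged ribosomal protein, mainly in excitatory forebrain neurons but also in neural progenitors. Between postnatal days 21 and 41 the early-life exercise (ELE) mice could run on a wheel in their cage, while sedentary mice had standard cages, and RNA was taken on day 42. Simultaneous isolation of nuclei and ribosomes (SIT) was run on both hemispheres of 4 ELE and 4 sedentary mice, and separate isolations on 1 hemisphere per mouse, from 3 ELE and 3 sedentary mice for the left and as many for the right.

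Insulin and the IGFs act on related receptor tyrosine kinases, Insr and Igf1r, which phosphorylate insulin receptor substrate (Irs) proteins and so recruit PI3-kinase, AKT, the FOXO factors and mTOR. Igf2r binds and clears IGF2 and carries lysosomal enzymes, and the Igfbp proteins bind IGFs outside the cell and set how much of them reaches a receptor. In the hippocampus this pathway is known for roles in neuron growth, survival, synaptic plasticity and the response to exercise.

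Total counts ran from 45895097 to 65767802 per library, and levels are given in CPM, counts scaled to each library's size with TMM factors. The excitatory neuron markers summed to between 10176 and 14035 CPM in the 20 libraries. A pair of sedentary SIT libraries (NT7.2.3, NT7.2.4) stood apart, with microglia marker sums of 179 and 188 CPM and mitochondrial shares of 8.64% and 9.64% of counts. The other 18 libraries had 2.34 to 9.05 CPM and 0.0704% to 0.523% for these. Interneuron markers summed to 893 and 923 CPM in the same pair, to 885 CPM in ELE NT6.304 and to 42.9 to 363 CPM elsewhere, and without Npy, which carried most of the sum in NT6.304, to 844, 883 and 109 CPM. The study compared 3 ELE and 2 sedentary SIT libraries, leaving out both NT7.2 mice and the ELE mouse NT6.304. It reports that the 2 excluded sedentary samples held much ribosomal and other non-mRNA sequence, and calls a fault in RNA isolation likely. The ELE mouse was dropped as an outlier in principal component analysis. This choice was kept, with all 8 given where they change the call of a member. Oligodendrocyte markers summed to 2161 to 4689 CPM and astrocyte markers to 1632 to 5289 CPM, and in bulk libraries fewer cells of a type cannot be told apart from less RNA per cell.

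Igfbp4 was the most abundant member by density, and Irs4 and Igf1 the least, with overlapping ranges. Per kilobase of exon, the mean over the 12 separately isolated libraries was highest for Igfbp4, at 37.7 ± 4.82 CPM per kb (SD, n = 12). Igfbp5 followed at 22.6 ± 4.72, Igfbp2 at 15.9 ± 4.80 and Irs2 at 13.6 ± 1.48 CPM per kb, and the ranges of neighbours among these 4 genes overlapped. A gap of 4.49-fold, with no overlap of libraries, separated Irs2 from the receptors. Igf2r at 3.03 ± 0.340 and Igf1r at 3.00 ± 0.225 CPM per kb were not separated by their spread. Insr, at 2.12 ± 0.177, lay below both without overlap, and Irs1, at 1.275 ± 0.150, below Insr. The adaptor Irs2 was thus read at 10.7 times the density of its relative Irs1. Scaled by longest transcript in place of exon length, the means were 4.42 for Igf1r, 3.18 for Igf2r and 3.11 CPM per kb for Insr. The order and spacing of the receptors therefore rest on the length used.

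At the low end, the mean of Irs4 was 0.0263 ± 0.0633 and that of Igf1 0.0221 ± 0.0168 CPM per kb, and without the library TG7.3.2, at 0.224, the mean of Irs4 was 0.00827 CPM per kb. Igf1, the ligand, had between 1 and 53 counts in each of 18 libraries, which is near the counting limit. Irs4, an adaptor best known from the hypothalamus, had 0 counts in 10 of 20 libraries and 3 or fewer in 11.

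**Figure D1:**
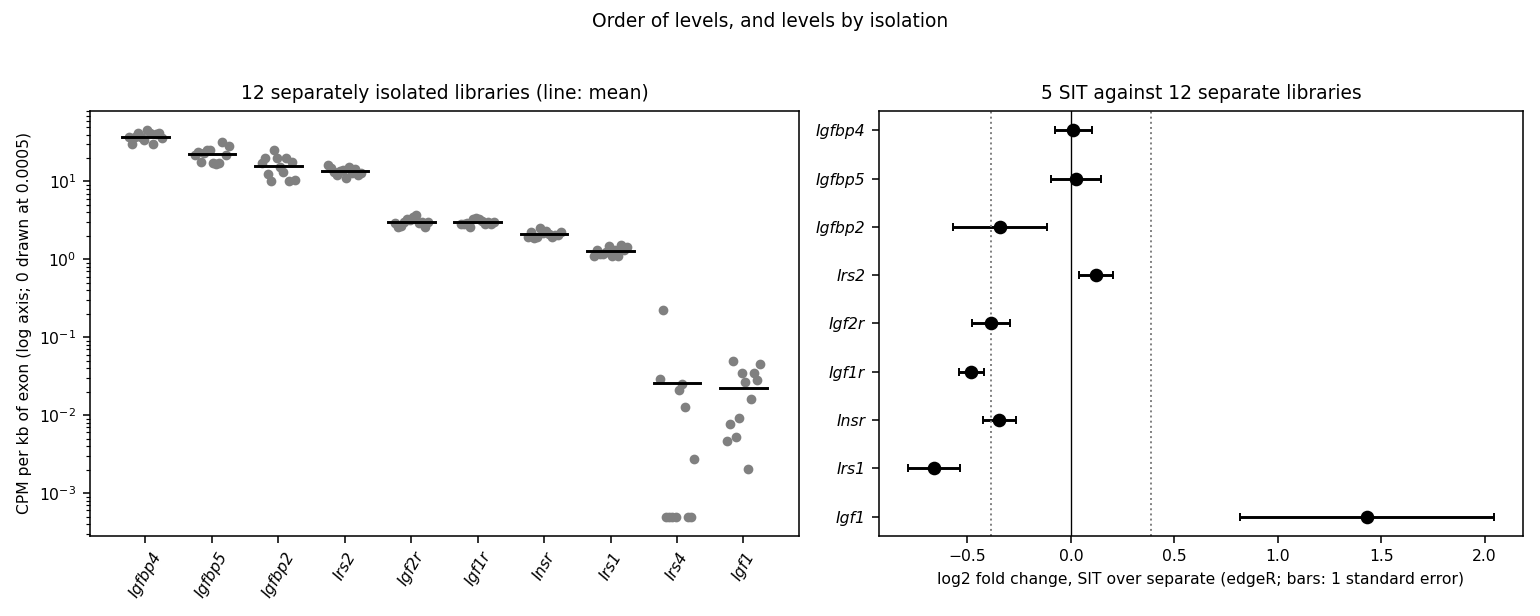
Left, CPM per kilobase of exon of the 10 members on a log axis in 12 separately isolated libraries (points) with the mean (line), where libraries at 0 are drawn at 0.0005. Right, log2 fold changes of 9 members between 5 SIT and 12 separate libraries with 1 standard error and the fold threshold of 0.3875 dotted. Igfbp4, Igfbp5, Igfbp2 and Irs2 lie above the receptors, and Igf1r and Irs1 lie below the lower dotted line.

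The genes lie on 7 chromosomes of the GRCm38 build. Igfbp2 (chr1:72824503-72852474, plus strand) and Igfbp5 (chr1:72857932-72874884, minus strand) face each other with 5457 bases between them. Irs1 (chr1:82233101-82291416), Irs2 (chr8:10984681-11008458), Insr (chr8:3122061-3279617) and Irs4 (chrX:141710998-141725263) are on the minus strand.

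RefSeq promoter windows of GRCm38.p6, 250 bases before to 50 bases after a start site, were found for 9 of the 10 members, with 10 windows in all and none for Insr. The E-box CACGTG, a palindrome, stood in 5 of 10 member windows, against 7.15% of 32851 windows of the same length. The cAMP response element TGACGTCA and the FOXO core GTAAACA, searched on both strands, stood in 0 of the 10 windows and in 1.79% and 3.65% of all windows. The E-boxes of the 3 adaptor genes are shown because all 3 windows hold one; capitals mark the E-box, and each line runs 5′ to 3′ on the gene's strand.
Irs1, chr1:82291539-82291564, minus strand: gaggctccgtCACGTGttttgctcct
Irs2, chr8:11008958-11008983, minus strand: aacgcagagtCACGTGttgttttgct
Irs4, chrX:141725356-141725381, minus strand: aggcgacggtCACGTGttgttttgcc
The E-box began 115 bases before the start site in Irs1, 44 in Irs2 and 154 in Irs4. Irs2 and Irs4 share the 17 bases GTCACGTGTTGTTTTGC around it, the longest run common to any pair of member windows, and no other of the 32851 windows held it. That run was picked out after the sequences were seen, and a match describes letters only.

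The first question was whether ELE changed translating RNA of these genes in the SIT libraries. Among the 10 members 5 were higher and 5 lower in ELE, and 1, Irs4, passed the study's rule of an unadjusted p under 0.05 with an absolute log2 fold change above 0.3875. Irs4 entered the fit only through its counts in sedentary libraries, so its call is a description. Over all genes tested 3.65% passed that rule, and the median log2 fold change of the members was -0.01, against 0.00 for all genes.

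Irs4 had 0, 0 and 0 counts in the ELE libraries NT6.303, TG7.4.1 and TG7.4.2, against 45 and 14 counts in the sedentary libraries NT6.305 and NT6.306. The groups did not overlap. With 3 counts per library as the floor, Irs4 was at least 10.4-fold lower in ELE, and with NT6.306 as the only sedentary library at least 4.96-fold. The exact permutation p was 0.1, the smallest that 3 against 2 allows, and edgeR's quasi-likelihood test gave an adjusted p of 0.905. With the prefix of the mouse number (such as TG7.4), whose meaning the sources do not give, as a replicate block, the fitted log2 fold change stayed at -7.94 and the call was lost, but both TG7.4 libraries are ELE, so that fit sets 1 ELE library against 2 sedentary ones. Without NT6.305 the gene was not tested. The left-out ELE library NT6.304 also had 0 counts and the left-out sedentary libraries had 37 and 29.

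In the separate isolations Irs4 ran the other way. The 6 ELE libraries had 92, 7 and 0 counts on the left and 8, 12 and 0 on the right, and the 6 sedentary libraries 0, 0 and 1 on the left and 0, 4 and 0 on the right. Too few libraries held counts for it to pass the count filter, and the ELE and sedentary ranges overlapped. An exact permutation test within hemispheres gave p = 0.0800 for the higher mean level in ELE, and with no filter edgeR gave a log2 fold change of 3.81 with p = 0.00394 and an adjusted p of 0.686 over the 12 libraries. TG7.3.2 alone held 92 of the counts: the ELE mean was 0.314 CPM with it and 0.0949 CPM without it, against 0.0163 CPM in sedentary libraries. The sign of the Irs4 difference was thus opposite in SIT and separate isolations, and that contrast was not tested.

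Irs2, the more abundant adaptor, had 108, 112 and 87.4 CPM in the SIT ELE libraries and 82.2 and 82.9 CPM in the sedentary ones. Every ELE library lay above both sedentary libraries, by a log2 fold change of 0.31 ± 0.12 (SE, edgeR adjusted p = 0.905), under the fold threshold. It passed the rule without TG7.4.2, at 0.41, and over single libraries left out ran from 0.25 to 0.41. The unadjusted edgeR value was p = 0.0303 and the exact permutation p was 0.2. The left-out libraries crossed this order: ELE NT6.304 had 70.3 CPM and sedentary NT7.2.3 had 106 CPM, and over all 8 the log2 fold change was 0.10 (edgeR adjusted p = 0.859). On the left the log2 fold change of Irs2 was -0.02 ± 0.11 and on the right 0.11 ± 0.10, with overlapping groups in both. Irs1 differed by 0.01 ± 0.28 in SIT and by -0.17 ± 0.10 over the 12 separate libraries (edgeR adjusted p = 0.915), with a 95% interval from -0.38 to 0.04.

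The receptors did not pass the rule in any of the SIT, left, right or 12-library comparisons. Igf1r had 38.1, 33.7 and 35.0 CPM in SIT ELE and 36.8 and 35.6 CPM in SIT sedentary libraries. In the separate isolations its mean was 49.2 ± 3.81 CPM in ELE and 51.5 ± 3.73 CPM in sedentary libraries (SD, n = 6 each), a log2 fold change of -0.07 with a 95% interval from -0.21 to 0.08. Insr had 28.5 ± 2.24 CPM in ELE and 29.8 ± 2.66 CPM in sedentary libraries there, with an interval from -0.22 to 0.09. Igf2r had 28.5 ± 4.07 and 28.0 ± 2.30 CPM, with an interval from -0.18 to 0.23. In these 12 libraries the intervals of all 3 receptors left out changes as large as the fold threshold in either direction. In SIT the intervals of Igf2r, from -0.14 to 0.61, and of Insr, from -0.27 to 0.46 did not. With all 8 SIT libraries Igf1r differed by -0.45, Insr by -0.31 and Igf2r by -0.02, and none passed. With only the NT6 mice, the left-out NT6.304 included, Igf2r passed the rule in SIT, at 0.58.

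**Figure D2:**
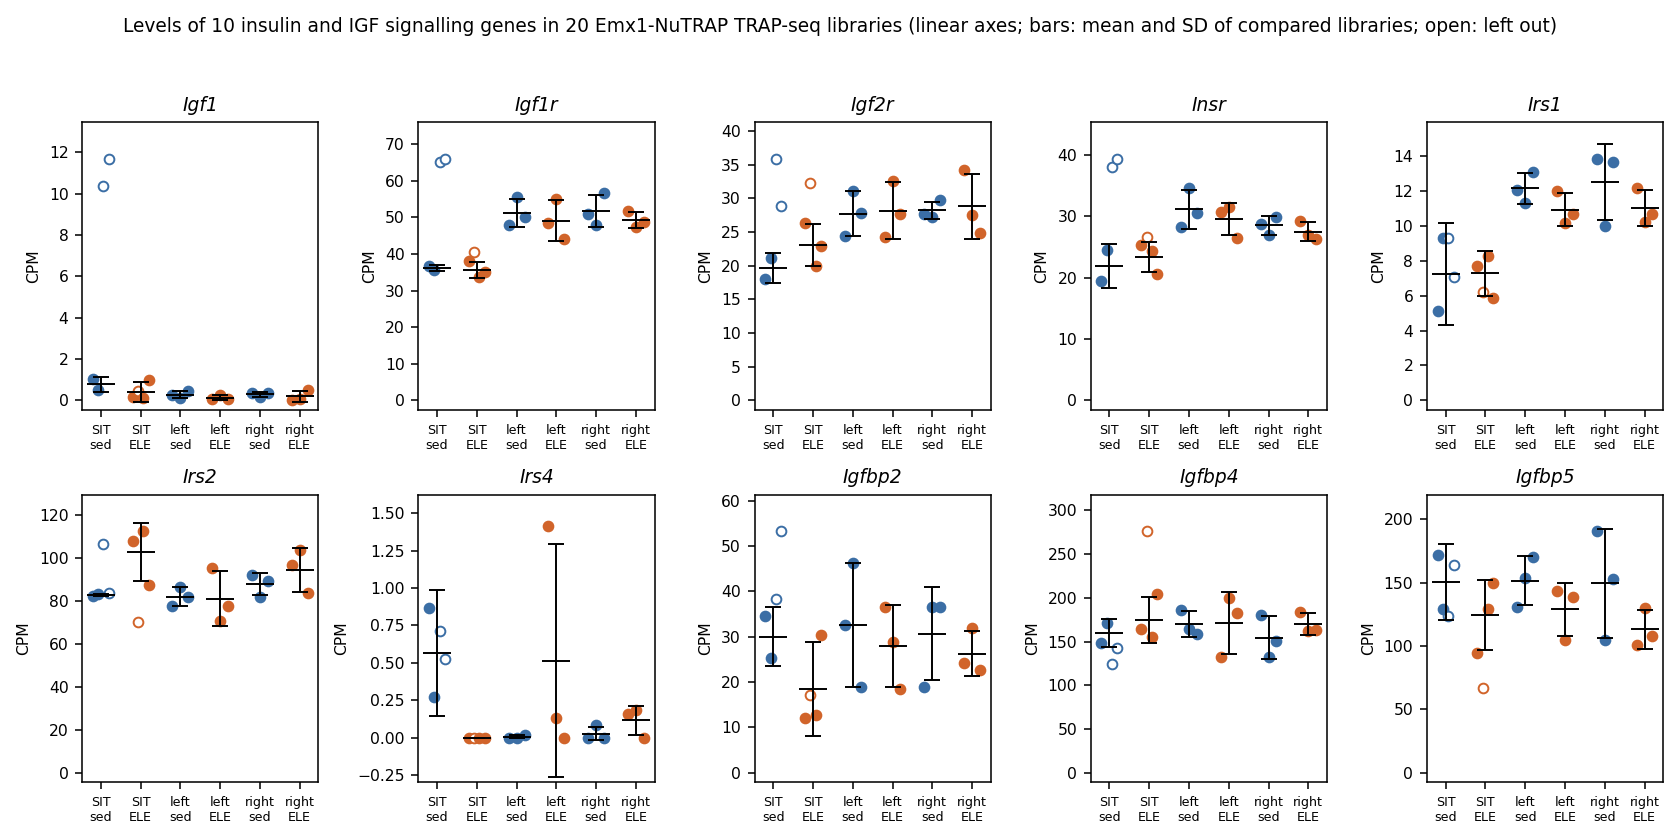
CPM of each member (linear axes) in the 20 libraries by isolation and exercise group, with sedentary in blue and ELE in orange, filled points for compared libraries, open points for left-out SIT libraries, and bars for the mean and SD of compared libraries. Igf1 stands high in the open points of sedentary SIT mice, at 10.4 and 11.7 CPM, and Igfbp5 means are lower in ELE than in sedentary mice in each isolation.

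Of the binding proteins, Igfbp5 had the lower mean in ELE in every set. SIT ELE libraries had 94.5, 129 and 150 CPM against 172 and 129 CPM in sedentary ones. On the left, ELE libraries had 143, 105 and 139 CPM and sedentary libraries 131, 153 and 170 CPM. On the right, ELE libraries had 101, 130 and 108 CPM and sedentary libraries 191, 105 and 153 CPM, and the groups overlapped in all 3 sets. The log2 fold changes of Igfbp5 were -0.27 ± 0.18 in SIT, -0.24 ± 0.14 in left and -0.40 ± 0.19 in right hippocampi, and their exact permutation p-values were 0.5, 0.3 and 0.3. Over single libraries left out in SIT, the Igfbp5 change ran from -0.46, without NT6.306, to -0.05. It passed the rule in SIT without TG7.4.2, at -0.43, and with only the NT6 mice, the left-out NT6.304 included, at -0.90. On the right the change ran from -0.61 to -0.18, and passed without TG9.1.3, at -0.51, and without TG9.1.1, at -0.61.

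Over the 12 separate libraries Igfbp5 differed by -0.32 ± 0.13, which missed the fold threshold. edgeR gave p = 0.0277 and an adjusted p of 0.911, and the exact permutation test within hemispheres gave 0.0900, with 0.00500 the smallest possible. In that comparison 5.37% of all genes had an unadjusted p under 0.05, and Igfbp5 was 1 of 9 members tested. Without the right sedentary library TG9.1.1 the change of Igfbp5 was -0.40, past both thresholds, and over all single libraries left out its unadjusted p ran from 0.00294 to 0.0877.

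Igfbp2, which in brain is also made by choroid plexus and astrocytes, had 12.01, 12.8 and 30.4 CPM in SIT ELE and 34.6 and 25.4 CPM in SIT sedentary libraries. The groups overlapped, and the log2 fold change was -0.70 ± 0.35 (edgeR adjusted p = 0.930). It passed the rule without TG7.4.2, at -1.27, with only the NT6 mice, at -1.04, and with no count filter. Over single libraries left out the SIT change ran from -1.27 to -0.46, and was -0.91 without NT6.306. On the right Igfbp2 was -0.22 ± 0.24, ran from -0.47 to -0.08 by library left out and passed without TG7.3.3, at -0.47. Of the 6 choroid plexus markers in SIT 5 were lower in ELE and 3 passed the rule. Their sum was 129, 236 and 578 CPM in these ELE and 588 and 671 CPM in these sedentary libraries. Among the separate libraries, the 4 with choroid sums from 1012 to 1272 CPM had 32.5 to 46.3 CPM of Igfbp2, and the 8 with sums from 17.3 to 83.9 CPM had 18.5 to 36.6 CPM. With the choroid sum as a covariate, an alternative chosen after seeing the data, the SIT difference of Igfbp2 was -0.04 and that over the 12 separate libraries 0.10, against -0.22 ± 0.22 without it. In the same fits Igfbp5 went from -0.27 to 0.05 in SIT and was -0.33 over the 12 libraries. Every compared SIT ELE library had a lower choroid sum than both sedentary ones, so the SIT fit cannot tell choroid content from exercise. Ttr reached 1159 CPM, while Kcnj13 was at 0 counts in 5 libraries and Clic6 and Otx2 in 1 each.

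Igfbp4, the most abundant member, had 164, 156 and 204 CPM in SIT ELE and 148 and 171 CPM in SIT sedentary libraries, a log2 fold change of 0.13 ± 0.13 (edgeR adjusted p = 0.992). In the 12 separate libraries its change was 0.07 ± 0.10.

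**Figure D3:**
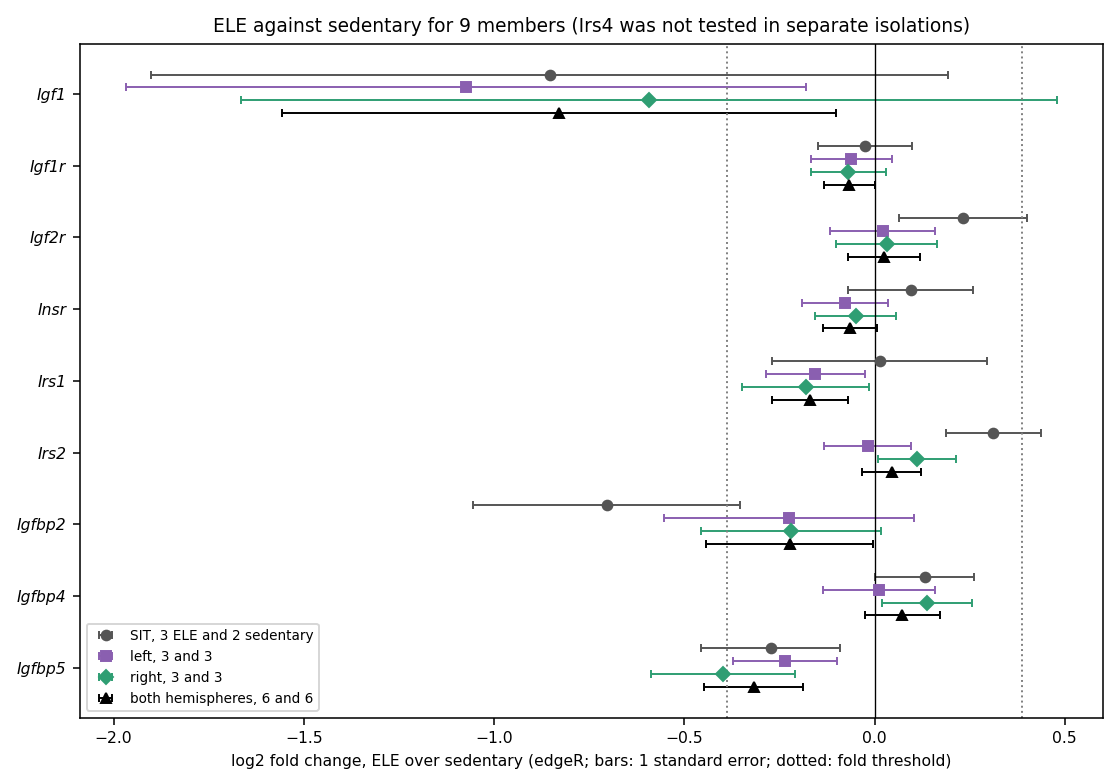
Log2 fold change of ELE over sedentary for 9 members (points, with 1 standard error) in SIT, left, right and both hemispheres together, with the fold threshold of 0.3875 dotted on each side. Igfbp5 lies left of 0 in all 4 comparisons, at -0.27, -0.24, -0.40 and -0.32, and Igf1r lies within 0.07 of 0 in each.

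Igf1 had 0.186, 0.110 and 0.982 CPM in the compared SIT ELE libraries and 1.02 and 0.521 CPM in the sedentary ones, and did not pass in any of those 4 comparisons, with log2 fold changes of -0.85 in SIT, -1.07 left, -0.59 right and -0.83 over the 12 libraries. It passed in SIT without TG7.4.2, at -2.36, and without TG9.2.1 on the right, at -2.99, and over the 12 libraries, at -1.79. Over single libraries left out the smallest changes of Igf1 were -0.29 in SIT, -0.08 on the right and -0.56 over the 12 libraries. With the choroid covariate, which in SIT goes with exercise as given above, the change of Igf1 there was 0.12. The 2 left-out sedentary libraries had 538 and 643 counts, or 10.4 and 11.7 CPM, 33.6 times the mean of the other 18. With all 8 SIT libraries Igf1 therefore passed the rule, at -3.75 (p = 0.00404, edgeR adjusted p = 0.403), with an exact permutation p of 0.0571. In that comparison 7.7% of all genes passed, and so did Irs4, Igfbp2 at -1.06 and Igfbp4 at 0.46. The microglia, interneuron and mitochondrial values of the same 2 libraries, given above, were high together with Igf1, and their part in it was not tested. The study left out both libraries for the reason given above. In that comparison 6 of the 6 microglia markers and 7 of the 8 interneuron markers passed as lower in ELE, as did 4 of the 4 endothelial and 4 of the 6 choroid plexus markers. Among the microglia markers Itgam was at 0 counts in 5 libraries and Tmem119 in 4.

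**Figure D4:**
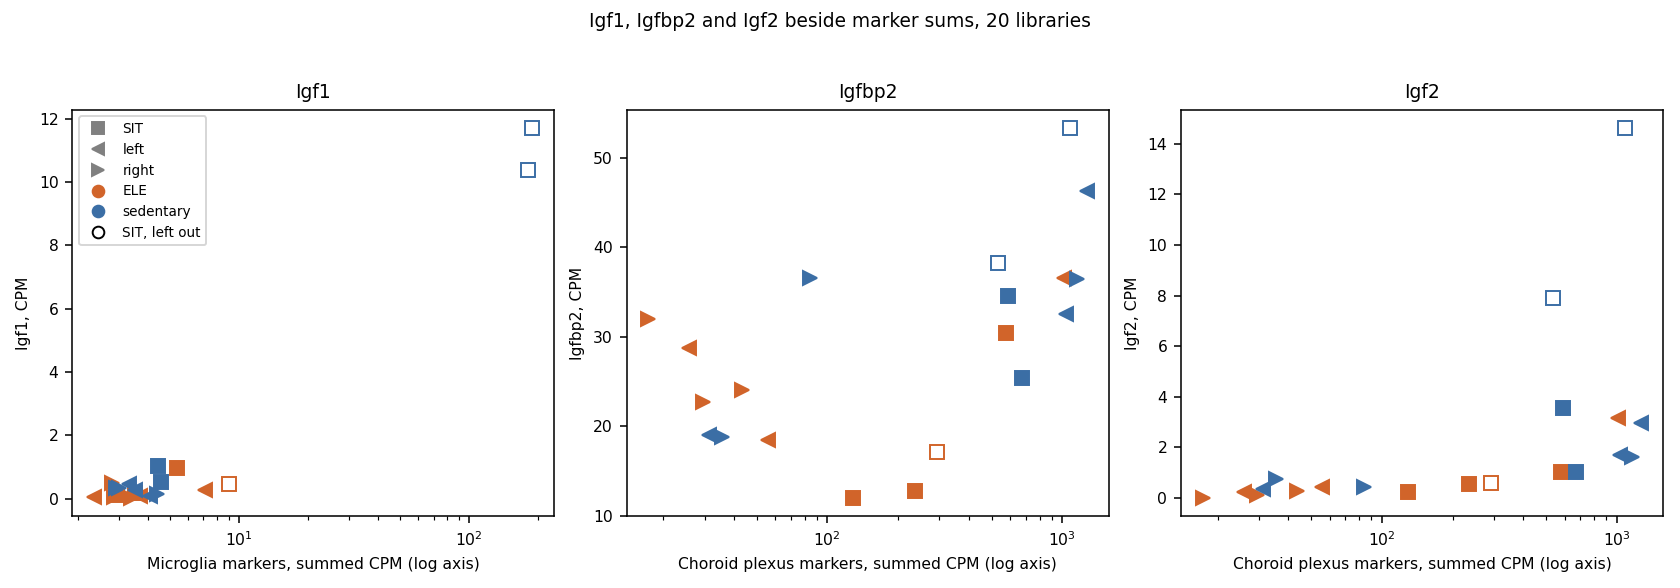
CPM of Igf1 beside the summed microglia markers, and of Igfbp2 and Igf2 beside the summed choroid plexus markers (log axes), for 20 libraries, with orange for ELE, blue for sedentary, squares for SIT, triangles for left and right, and open squares for left-out SIT libraries. Igf1 is above 10 CPM in the 2 libraries with microglia sums of 179 and 188 CPM, and Igf2 is above 1 CPM in the libraries with choroid sums of 534 CPM or more.

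Between hemispheres, no member passed the rule by edgeR among the 9 tested, where 1.14% of all genes did, and 0 had an unadjusted p under 0.05. Irs2 came nearest, with 81.4 CPM on the left and 91.0 CPM on the right, a log2 difference of -0.16 ± 0.08 that missed the p threshold. The interaction of exercise with hemisphere passed for 0 of the 9 members, against 2.2% of all genes, with Igfbp5 at 0.16 ± 0.26. In the left comparison alone 2.07% of all genes passed and in the right 1.97%, and in each 0 members passed, as in the 12-library comparison, where 1.97% of genes passed. DESeq2 passed 1 member in each of these, Irs4 on the left and over the 12 libraries and Igfbp5 on the right, and 0 for hemisphere and interaction.

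By the study's rule Igf1r and Irs1 were lower in SIT than in separate isolations. Igf1r was lower in the 5 SIT libraries, at 35.9 ± 1.71 CPM, than in the 12 separate ones, at 50.4 ± 3.78 CPM, without overlap. The log2 difference was -0.48 ± 0.06 with an adjusted p of 8.92e-06 (edgeR). Irs1 was lower by -0.66 ± 0.12 (adjusted p = 0.000511, edgeR), with 7.26 ± 1.72 against 11.7 ± 1.37 CPM and no overlap. Insr, at -0.35 ± 0.08, and Igf2r, at -0.39 ± 0.09, had adjusted p-values of 0.00259 and 0.00381 in edgeR but missed the fold threshold. Igf2r lay at its edge, at -0.387, and passed with DESeq2, with median-of-ratios size factors, with no filter, and at a threshold of 0.3785, an alternative chosen after seeing the data. These 4 of 9 tested members passed an adjusted p of 0.05, where 25.5% of all genes did.

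By the study's rule Igf1r, Irs1 and Igf1 passed, where 14.4% of all genes did. Igf1 was higher in SIT by 1.43 ± 0.61 (adjusted p = 0.0955, edgeR), at 0.564 against 0.219 CPM, and lost its call without TG7.4.2, at 0.81, and without NT6.305, at 1.26. With only sedentary libraries Igf1r differed by -0.51, Igf2r by -0.51, Insr by -0.44 and Irs1 by -0.77, and all 4 passed. Irs4, which was not tested over the 17 libraries, also passed there as higher in SIT. It entered that fit only through its counts in sedentary SIT libraries, so its call is a description. The NT7.2 libraries, with 65.1 and 66.1 CPM of Igf1r, lay above every separate library, and with all 8 SIT libraries the difference was -0.22 for Igf1r, -0.11 for Insr and -0.14 for Igf2r, each with an unadjusted p above 0.05, and -0.66 for Irs1, which passed. Of the 6 astrocyte markers 4 passed as lower in SIT, and of the 8 interneuron markers 5 as higher and 1 as lower. Mitochondrial shares were 0.245% to 0.523% in the 5 SIT and 0.0704% to 0.122% in the 12 separate libraries. The part of these in the differences was not tested. Isolation, whole or single-hemisphere tissue and the prefix of the mouse number changed together, so they cannot be told apart. SIT and separate libraries shared no prefix. The binding proteins Igfbp4 and Igfbp5 differed by 0.01 ± 0.09 and 0.02 ± 0.12.

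Members also varied with one another. Over the 18 libraries without the NT7.2 mice, Pearson's r of log2 CPM was 0.85 between Igf1r and Insr, 0.81 between Insr and Irs1 and 0.74 between Igf2r and Insr, values that include the difference between isolations. Igf1 and Insr had r = -0.63. Over all 20 libraries the genes most like Igf1r were Kcnma1, Srcin1 and Apc (r = 0.94, 0.93 and 0.92), those most like Igfbp5 were Galnt16, Camk2n1 and Pik3ip1 (r = 0.87, 0.86 and 0.85), and those most like Irs4 were Baiap3, Car10 and Gabra3 (r = 0.89, 0.83 and 0.79). Nxph1 was most like Igf1 (r = 0.97), Igf1r most like Insr (0.90), Mical3 most like Igf2r (0.87) and Rnf123 most like Irs1 (0.91). Dmpk was most like Igfbp2 (0.87) and Dock11 most like Irs2 (0.80). Without the NT7.2 mice Nxph1 was no longer among the 3 genes most like Igf1, of which Gm7536 led (0.87). In those 18 libraries Shc3 led for Igf1r (0.95) and Stk11 for Igfbp5 (0.91), while Baiap3 still led for Irs4 (0.89).

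Beyond the members, 85 genes of the wider pathway were listed as ligands and carriers, receptor partners, the PI3K to mTOR branch and FOXO targets. In SIT 80 were tested: 1 passed higher in ELE and 3 lower, where 3.65% of all genes passed. Igf2, the fetal growth factor that choroid plexus also makes, was lower by -1.94 ± 0.71, with 0.220, 0.551 and 1.02 CPM in ELE against 3.56 and 1.02 CPM in sedentary libraries. Foxo6, a forebrain FOXO factor, was lower at -0.39 ± 0.11, and the transcriptional coregulator Cited2 was lower at -0.39 ± 0.14. Bcl6, a repressor and FOXO target, was higher at 0.39 ± 0.16, and all 4 had edgeR adjusted p-values of 0.905. With the choroid covariate, which in SIT cannot be told apart from exercise, Igf2, Cited2 and Bcl6 lost their calls. Igf2 was also not called without NT6.303, TG7.4.1 or NT6.305. Foxo6, Cited2 and Bcl6 also each lost the call without at least 1 single library. With all 8 SIT libraries Igf2 kept its call and Foxo6, Cited2 and Bcl6 did not. The left-out ELE library NT6.304 had 98.1 CPM of Foxo6 and 66.9 CPM of Cited2, above the other ELE libraries.

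Of the 77 tested in each hemisphere, 3 passed higher on the left and 3 lower on the right, where 2.07% and 1.97% of all genes passed. On the left these were Stc2, which inhibits the protease that frees IGFs (0.86 ± 0.30), Socs3, a suppressor of cytokine and insulin signalling (3.83 ± 1.23), and the receptor-sorting Sorcs1 (0.78 ± 0.29). Socs3 rested on TG9.1.4, with 23.8 CPM against 1.30 and 0.699 CPM in the other left ELE libraries. Stc2 lost its call without TG7.3.2, TG9.1.2 or TG7.3.4, and Sorcs1 without TG9.1.2, TG9.1.4 or TG7.3.4. On the right Igfbp7, a secreted IGF binding protein relative, had 1.54, 1.86 and 1.72 CPM in ELE against 4.33, 4.36 and 3.79 CPM in sedentary libraries, without overlap (a log2 fold change of -1.280 ± 0.226, edgeR adjusted p = 0.590). Right ELE libraries were also lower in Igf2 (-2.90 ± 1.02) and in the adaptor Sh2b2 (-0.64 ± 0.23). Of 5 choroid plexus markers tested on the right 4 passed as lower in ELE, and with the choroid covariate Igf2 and Sh2b2 lost their calls while Igfbp7 passed. On that side 4 of 4 endothelial markers were also lower in ELE, with 1 passing, as were 5 of 5 meningeal markers tested, with 1 passing. The part of these markers in the calls was not tested. Igf2 also lost its call there without TG9.2.3, and Sh2b2 without TG9.2.1 or TG9.2.3.

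Over the 12 libraries 2 of 77 passed, against 1.97% of all genes: Igfbp7 at -0.61 ± 0.23 and Sh2b2 at -0.43 ± 0.16, both lower in ELE. Igfbp7 lost this call without TG9.1.3, TG9.2.1 or TG7.3.1, and Sh2b2 without TG9.2.1, TG9.2.2 or TG9.2.3. The median log2 fold change of the wider genes was 0.03 in SIT, 0.03 on the left, 0.01 on the right and 0.01 over the 12 libraries, against 0.00 for all genes in each. By isolation 4 of 79 were higher and 7 lower in SIT, where 14.4% of all genes passed, among them the neuronal adaptor Shc3 at -1.30 ± 0.09, the mTOR inhibitor Tsc2 at -0.69 ± 0.10, Mtor at -0.40 ± 0.07 and Foxo1 at 0.61 ± 0.11. Mtor lost this call without NT6.303, TG7.4.2, TG7.3.1 or TG7.3.3 and with all 8 SIT libraries.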

How the data were processed

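TRAP-seq libraries were grouped by the labels (isolation, hemisphere, exercise), and table columns were matched to groups through the study's mouse list. Per the submitters' processing notes, reads were checked with FastQC 0.11.9, aligned with STAR 2.7.3a and passed through Picard 1.87. The study's methods name GRCm38. The authors deposited whole-number counts per gene, not normalized. Left and right follow the mouse list, since the labels carry no mouse numbers, and mean normalized counts of the libraries so assigned matched the study's left list for 548 of 548 genes and its right list for 358 of 358, with 0 matches for exchanged sides. A second table, with 24 columns that could not be matched to samples, was not used.

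Symbols and exon lengths came from GENCODE vM21, which matched 55154 of 55335 identifiers. The SIT libraries compared were those whose mean normalized counts matched the study's list for 633 of 633 genes. Counts were TMM-scaled, filtered with filterByExpr (minimum count 10) and tested with edgeR 4.0.16 in R 4.3.3 by its quasi-likelihood test, with DESeq2 1.42.0 as an alternative. Standard errors were the absolute log2 fold change divided by the square root of F. The study prints its fold threshold both as 0.3875 (methods, used here) and as 0.3785. Adjusted p-values are Benjamini-Hochberg values over all genes tested. Exact permutation tests, two-sided, used log2(CPM + 0.5). Per the study's methods, read pairs were counted by strand. The fits were tested on simulated data. For all 24 pairs of libraries within groups the chi-square over genes, divided by the number of genes, was 20.2 or more, so counting error was not the main limit and no pair was counted as 1 sample. Members and lists were chosen with earlier results of these data known. The named genes were the members, the wider-list genes passing the study's rule in an exercise comparison, and the 3 genes most like each member in pattern (mean CPM of at least 1), of which those leading are given, except for a result that is not reported here. Tsc2, Mtor and Foxo1, and the isolation value of Shc3, were chosen after their values were seen.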

Additional observations from a re-analysis of the deposited data

Results flagged for a closer look

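In the groups of 4 SIT libraries, 38 groups of values were checked with Dixon's ratio, which chance passes in about 1 in 20. Among the members, Irs2 was set apart in 1 sedentary library, NT7.2.3, with 106 CPM against 82.2 to 83.6 CPM in the other 3. In the wider pathway, the left-out ELE library NT6.304 lay far from the other 3 ELE libraries in 6 genes. It had 43.4 CPM of Socs3 against at most 0.965, 66.9 CPM of Cited2 against at most 26.2, and 98.1 CPM of Foxo6 against at most 59.97. It also had 28.4 CPM of Sorcs1 against at most 8.20, 7.303 CPM of Stc2 against at most 4.94, and 6.64 CPM of Igfbp7 against at most 2.37. Sedentary NT7.2.3 had 6.89 CPM of Socs3 against at most 1.49 in its group.

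For 3 of the named wider genes the interaction of exercise with hemisphere passed the study's rule by edgeR, out of 4 among 79 wider genes tested, where 2.2% of all genes passed. Igfbp7 had an interaction of 1.33 on the log2 scale, being 0.05 on the left and -1.280 on the right. Stc2 had an interaction of 0.93 and Socs3 one of 3.88, with the Socs3 value resting on the left ELE library TG9.1.4. Each had an unadjusted p under 0.05, at 0.000656, 0.0469 and 0.0478, and an adjusted p of 0.99996 over all genes. No interaction of a member reached an unadjusted p under 0.05 by edgeR.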

How the results depend on the processing

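The number of members passing in SIT was 1 as reported and 2 with no filter on low counts, 3 with the replicate block by the first part of the mouse number, 4 with all 8 libraries, 4 with these and no mitochondrial genes, 4 with the NT6 mice only, the left-out NT6.304 included, and 2 with no fold threshold. Leaving out single libraries gave 0 to 5: 5 without TG7.4.2, 3 without NT6.306 and 0 without NT6.305, where Irs4 was no longer tested. DESeq2 and no filter each gave 1 member in place of 0 on the left, on the right and over 12 libraries, and no fold threshold 1 over 12 libraries. Single libraries left out gave 0 to 1 on the right and over 12 libraries and 2 to 5 by isolation, and sedentary libraries only gave 6 in place of 3 by isolation.

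For the wider genes, SIT gave 8 with all 8 libraries, with or without mitochondrial genes, 7 with the choroid covariate, 7 with no fold threshold and 1 to 7 by library left out, in place of 4. The left gave 0 to 6 (0 without TG7.3.4) in place of 3. The right gave 1 to 8 by library (1 without TG9.2.3, 8 without TG9.1.1), 1 with the covariate and 5 with no fold threshold, in place of 3. Over 12 libraries it was 6 with no filter, 5 with the replicate block, 7 with no fold threshold and 0 to 5 by library, in place of 2. By longest transcript in place of exon length, 6 of 10 members kept their rank, while Igf1r and Igf2r, and Igf1 and Irs4, exchanged places.

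Libraries that share a number prefix had r of -0.12 to 0.29 over 6 pairs on the left and right. TG7.3 was highest on both sides, at 0.28 left and 0.29 right, and SIT pairs were not examined. Both TG7.4 libraries are ELE, so the block fit of SIT sets only NT6.303 against 2 sedentary libraries, and its calls of Irs2, Igfbp2 and Igfbp5 and its loss of Irs4 rest on that 1 ELE library. Under the block no member passed on the left, on the right, over 12 libraries, for the interaction or for hemisphere, as without it, and the isolation comparison was not run with it. Genes passing over the whole table went from 665 to 1000 with the block in SIT, 1350 with all 8 libraries, 1266 with the covariate, 1179 with the NT6 mice only and 355 to 1086 by library left out. By library left out they ran from 220 to 945 on the left, 308 to 643 on the right, 294 to 589 over 12 libraries, 354 to 718 for the interaction and 194 to 437 for hemisphere. With no filter they went from 367 to 691 on the left, 347 to 715 on the right, 360 to 961 over 12 libraries, 414 to 1041 for the interaction, 208 to 663 for hemisphere and 2716 to 4215 for isolation, and by DESeq2 to 552, 615 and 426 for left, 12 libraries and hemisphere. Over 984 refitted fold changes of members, 937 stayed on the same side of the rule, and of those 105 uncalled ones differed in sign. Igf1 and Irs4 are limited by counts. A fold threshold of 0.3785 gave 4 members in place of 3 by isolation and the same counts of members elsewhere. The cause of each change was not tested.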
